A study of Mus musculus with 26 samples.

Results

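Epiblast-like cells (EpiLC) of day 3 were compared with EpiLC of day 2 of the same label, on 4 of the 26 arrays of the series. EpiLC are made in culture from mouse embryonic stem cells and stand for the epiblast of the embryo around implantation. The arrays were chosen by their titles, 2 for day 3 and 2 for day 2, and hold messenger RNA levels of 18193 genes, each read from the probe set that was brightest on average across the 26 arrays. Both groups were C57BL/6, male, Prdm14 (+/+) and carried the Blimp1-mVenus and Stella-ECFP (BVSC) transgenes, which report the germ cell genes Prdm1 and Dppa3. The groups therefore differ, by their labels, in the day alone. Wild-type stem cells in 2i, the medium with the MEK inhibitor PD0325901 at 0.4 uM, the GSK3 inhibitor CHIR99021 at 3 uM and LIF at 1000 units per ml, serve as a point of comparison for levels only. No transgene is labelled in that line, so line and state cannot be told apart there. Feeder fibroblast genes were also far higher on the 2i arrays, as given below, so a 2i level may include feeder RNA. How much it does was not tested. The other arrays hold wild-type, Prdm14 knockout and Prdm14-rescued stem cells in 2i or serum media, which enter through the estimate of the spread and, for wild-type cells, through a comparison of LIF withdrawal. The sources used here do not give how EpiLC were grown; their protocols describe stem cells on mouse embryonic fibroblast feeders. The labels do not say whether the arrays of 1 group came from separate cultures, and p-values therefore speak only for the variation among the arrays, possibly of technical origin.

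Naive stem cells resemble the epiblast of the blastocyst and rest on LIF and STAT3 signalling and on factors such as Klf4, Esrrb, Tfcp2l1 and Tbx3. Under FGF and activin they leave this state for a formative one, in which Otx2, Pou3f1, Fgf5 and the de novo DNA methyltransferases are on and the cells can still become primordial germ cells. This ability is short-lived: EpiLC of day 2 are the usual starting point for germ cell induction, and longer culture moves cells towards the primed epiblast and its lineages.

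Levels below are on a log2 scale, on which 1 unit is a 2-fold difference, and the 4 arrays were alike in median and 25th percentile. Their medians ran from 4.88 to 4.97 and their 25th percentiles from 3.21 to 3.23, while 389 to 447 probe sets an array were listed at 0. Arrays of the same day differed by a median of 0.16 (day 3) and 0.15 (day 2) over genes, and arrays of different days by 0.30 to 0.32. Control probes for the ends of Actb lay 0.23 and 0.25 apart (3' minus 5') on day 3, against 0.18 and 0.24 on day 2, and those of Gapdh -0.23 and -0.21 on day 3, against -0.19 and -0.20 on day 2. The longer transcript of Tfrc had gaps of 1.10 and 1.49 on day 3, against 0.78 and 0.88 on day 2. The part of this gap in any result was not tested. Among spiked-in control RNAs, AFFX-PheX-3 read 10.34 and 10.41 on day 3, against 9.89 and 10.02 on day 2. AFFX-DapX-3 read 12.26 and 12.28 on day 3, against 11.92 and 11.98 on day 2. AFFX-ThrX-3 read 9 and 8.96 on day 3, against 8.49 and 8.6 on day 2. AFFX-LysX-3, near the series' highest value of 13.89, read 13.54 and 13.58 on day 3, against 13.60 and 13.58 on day 2. The bioB, bioC and bioD spikes overlapped between the days. AFFX-r2-P1-cre-3 read 13.64 and 13.62 on day 3, against 13.65 and 13.68 on day 2. The part of these shifts in any result was not tested.

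Markers of the labelled cell type were present on both days. The summed signal (levels turned back from the log scale) of Fgf5, Otx2, Pou3f1, Dnmt3b, Sox3 and Pou5f1 was 14886 to 15729 on day 3, against 22105 to 22620 on day 2, while wild-type cells in 2i had 6962 to 7135. Among these 6 epiblast markers, Pou3f1 and Pou5f1 fell and none rose. The 6 naive markers summed to 1302 to 1403 on day 3, against 1277 to 1369 on day 2, and to 17857 to 20810 in 2i. Among them, Tfcp2l1 and Tbx3 rose, while Zfp42 (difference -0.395) and Nr0b1 (difference -0.92) fell. Of 4 listed primitive streak markers 3 were tested, and the other was not found under its listed name, so its level is not given. For these 3 primitive streak, 4 neuroectoderm and 5 extraembryonic endoderm markers no sum exceeded 169 on any EpiLC array. None of these genes passed the test. Trophoblast markers summed to 171 to 176 on day 3, against 79.5 to 86.9 on day 2, with Gata3 the 1 of 4 that rose. Feeder fibroblast markers are described with the actin genes. In bulk RNA, fewer cells of a type and less RNA per cell cannot be told apart.

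Between the days, 3198 of 18193 genes passed the test at an adjusted p under 0.05 (17.6%), 1436 of them higher on day 3 (7.89%) and 1762 lower (9.69%). The test was limma's moderated test, with the spread taken from all 13 groups of 2 arrays and p-values adjusted over all genes. Most differences were modest, with a median size of 0.59 among the genes that passed. At least 2-fold were 613 genes, 243 higher on day 3 (1.34% of all tested) and 370 lower (2.03%). In all 3198 genes the arrays of the days did not overlap, which held for 58.0% of all genes tested. The count depended on single arrays: without day 3 replicate 2 it was 2042, without day 2 replicate 1 it was 2044, and without day 2 replicate 2 it was 2055. Without day 3 replicate 1 the total was 2390, with 914 genes higher. For the gene lists below, counts of rises or falls without an array are given where they differ by more than 1.5-fold from the count with all arrays. Every list count is to be read beside the shares of all genes, 7.89% higher and 9.69% lower.

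**Figure D1:**
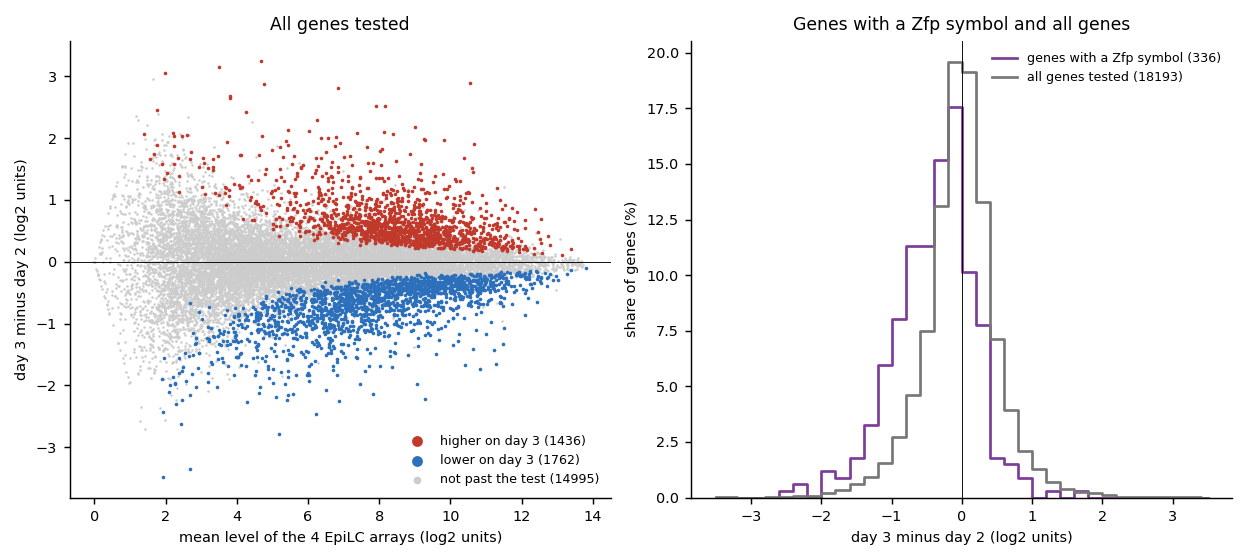
Left, each point is 1 of 18193 genes, with the mean level of the 4 EpiLC arrays on the x axis and the difference day 3 minus day 2 on the y axis (both log2 units); red points (1436) passed as higher on day 3 and blue points (1762) as lower. Right, the distribution of the same difference for 336 genes with a Zfp symbol and for all genes, as a share of genes in bins of equal width, where the Zfp curve lies to the left of the other.

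Among the 12 largest rises, few genes were abundant. Fabp3, a fatty acid carrier of the cytoplasm, read 11.86 and 12.11 on day 3, against 8.91 and 9.28 on day 2, a rise of 2.89 (SE 0.27, adjusted p = 5.79e-07) or 7.41-fold. It lay at 13.03 and 12.88 in 2i cells, so day 3 was nearer to 2i than day 2 was. Gadd45b, a stress-induced gene linked to growth arrest and DNA demethylation, read 9.33 and 9.48 on day 3, against 6.86 and 6.92 on day 2, a rise of 2.52 (SE 0.31, adjusted p = 1.4e-05). Dcaf12l1, a relative of the ubiquitin ligase receptor Dcaf12, read 9.33 and 9.03 on day 3, against 6.62 and 6.71 on day 2, a rise of 2.52 (SE 0.22, adjusted p = 2.98e-07). Its other probe set differed by the same 2.52. Acta1, the skeletal muscle actin, read 8.28 and 8.2 on day 3, against 5.05 and 5.82 on day 2, a rise of 2.81 (SE 0.43, adjusted p = 0.000118). Ankrd1, a nuclear ankyrin repeat protein and a common target of YAP, read 5.25 and 5.03 on day 3, against 2.29 and 2.69 on day 2, a rise of 2.65 (SE 0.47, adjusted p = 0.000476). Gata3, a transcription factor of trophoblast and other epithelia, read 5.26 and 5.65 on day 3, against 2.8 and 3.28 on day 2, a rise of 2.42 (SE 0.46, adjusted p = 0.000881). In each of these 6 genes both day 3 arrays lay above both day 2 arrays, and day 2 arrays of Gata3 and Ankrd1 lay under the array medians.

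The other 6 large rises started below the array medians on day 2. Ntn1, which encodes the guidance cue netrin 1, read 6.25 and 6.13 on day 3, against 3.05 and 3.57 on day 2, a rise of 2.88 (SE 0.44, adjusted p = 0.000113), but its other probe set differed by -0.30. Zmynd10, needed for motile cilia, read 6.28 and 6.3 on day 3, against 2.23 and 3.87 on day 2, a rise of 3.24 (SE 0.67, adjusted p = 0.00191). Scg2, a secretory granule protein, read 4.78 and 5.37 on day 3, against 2.56 and 1.29 on day 2, a rise of 3.15 (SE 0.60, adjusted p = 0.000937). The homeobox gene Gsx2 read 5.05 and 5.26 on day 3, against 2.19 and 2.75 on day 2, a rise of 2.69 (SE 0.57, adjusted p = 0.0024). Tex24 rose by 3.06 (SE 0.98, adjusted p = 0.0372) and 8430432A02Rik by 2.46 (SE 0.70, adjusted p = 0.019), both listed at 0 on 1 day 2 array and under the array medians on both days. Where all 4 EpiLC arrays were kept, the call of Tex24 was lost without the intensity trend. Leaving out 1 array lost the call of Tex24 in 4 of 4 cases, that of 8430432A02Rik in 2 and that of Zmynd10 in 1, while the other 9 large rises passed in each.

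Of the 12 largest falls, Mycn was the most abundant. This member of the MYC family, which drives growth, read 8.29 and 8.08 on day 3, against 10.37 and 10.43 on day 2, and fell by 2.22 (SE 0.14, adjusted p = 7.37e-09). The day 3 arrays lay more than 2 units below those of day 2, and 2i cells stood at 10.2 and 10.04, close to day 2. Zfp936, of the large zinc finger family described below, read 5.85 and 5.63 on day 3, against 7.91 and 8.08 on day 2, and fell by 2.26 (SE 0.28, adjusted p = 1.52e-05). Its relative Zfp719 read 4.5 and 4.06 on day 3, against 6.38 and 6.65 on day 2, and fell by 2.24 (SE 0.17, adjusted p = 7.18e-08). Kbtbd6, an adaptor of a cullin 3 ubiquitin ligase, read 2.67 and 3.65 on day 3, against 5.23 and 5.63 on day 2, and fell by 2.27 (SE 0.28, adjusted p = 1.35e-05). Dido1 read 5.2 and 4.77 on day 3, against 7.46 and 7.44 on day 2, and fell by 2.47 (SE 0.17, adjusted p = 1.98e-08) on its chosen probe set, while its 4 further probe sets differed by between -1.24 and 0.03. Slfn9, a Schlafen family gene, read 4.54 and 3.05 on day 3, against 6.48 and 6.69 on day 2, with the day 3 arrays more than 1 unit apart, and fell by 2.79 (SE 0.73, adjusted p = 0.0108).

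The remaining 6 falls lay under the array medians on both days. Cebpa, a transcription factor of liver, fat and myeloid cells, read 0.79 and 1.25 on day 3, against 4.34 and 4.42 on day 2, and fell by 3.36 (SE 0.95, adjusted p = 0.0179). Spata21 read 0.03 and 0.32 on day 3, against 3.56 and 3.75 on day 2, and fell by 3.48 (SE 0.64, adjusted p = 0.00074). Mcemp1 fell by 2.24 (SE 0.39, adjusted p = 0.000424), Mars2, the mitochondrial methionyl-tRNA synthetase, fell by 2.30 (SE 0.41, adjusted p = 0.000584), Klrb1a fell by 2.43 (SE 0.80, adjusted p = 0.0422) and Ccdc89 fell by 2.63 (SE 0.61, adjusted p = 0.00452). On day 3, Ccdc89 was listed at 0 on 1 array and at 2.22 on the other. Leaving out 1 array lost the calls of Cebpa and Klrb1a in 4 of 4 cases, that of Slfn9 in 3 and that of Ccdc89 in 1. With the probe set that was highest in EpiLC, Mars2 did not pass and Dido1 differed by 0.03 (adjusted p = 0.966).

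**Figure D2:**
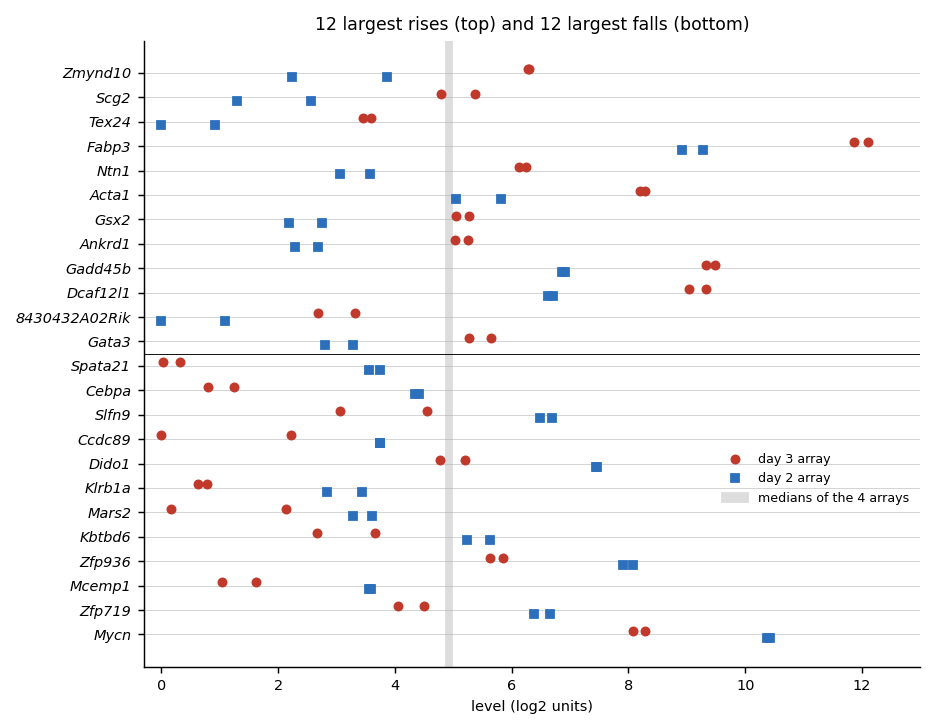
Levels (x axis, log2 units) of the 12 genes with the largest rise and the 12 with the largest fall, each point an array, red circles for day 3 and blue squares for day 2. The grey band marks the medians of the 4 arrays, 4.88 to 4.97; Fabp3, Acta1, Gadd45b, Dcaf12l1, Mycn and Zfp936 lie above it on all 4 arrays.

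Genes of the formative and primed epiblast were lower on day 3. Of 28 tested, 11 fell (39.3%, against 9.69% of all genes) and none rose. The median difference was -0.48 over the list and -0.01 over all genes. Zic2, a zinc finger factor of the epiblast, read 8.12 and 7.97 on day 3, against 9.72 and 9.39 on day 2, and fell by 1.51 (SE 0.17, adjusted p = 5.73e-06). Its relative Zic5 read 8.8 and 8.58 on day 3, against 9.88 and 9.86 on day 2, and fell by 1.18 (SE 0.17, adjusted p = 7.04e-05). Fgf15, an FGF ligand, read 5.23 and 5.23 on day 3, against 6.66 and 6.69 on day 2, and fell by 1.45 (SE 0.24, adjusted p = 0.000224). The zinc finger gene Sall2 fell by 0.80 (SE 0.11, adjusted p = 3.57e-05), Sox4 fell by 0.98 (SE 0.18, adjusted p = 0.00069) and the Wnt effector Lef1 fell by 0.57 (SE 0.13, adjusted p = 0.0042). In 2i cells Zic2 stood at 8.64 and 8.54, above day 3 and below day 2, and Sall2 at 7.27 and 7.12, close to day 3. The count of falls was 7 without day 3 replicate 1, day 2 replicate 1 or day 2 replicate 2, and the call of Lef1 was lost in 1 of the 4 fits that leave out an array.

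Pou3f1, which encodes Oct6 and is among the most specific formative markers, read 10.53 and 10.5 on day 3, against 12 and 11.89 on day 2, and 6.89 and 6.88 in 2i. It fell by 1.43 (SE 0.44, adjusted p = 0.0279), and the call was lost without the intensity trend (adjusted p = 0.0591) and without any 1 of the 4 arrays. Fgf5, the classic marker of EpiLC, read 8.35 and 8.22 on day 3, against 9.63 and 9.7 on day 2, far above 3.8 and 3.04 in 2i. Its difference of -1.38 (SE 0.68, adjusted p = 0.194) did not pass, although the arrays of the days did not overlap. The same held for Dnmt3a, which lays down new DNA methylation, at 10.98 and 10.95 on day 3, against 12.06 and 11.79 on day 2, a difference of -0.96 (SE 0.36, adjusted p = 0.0795). Dnmt3b, its partner enzyme, read 12.8 and 12.66 on day 3, against 13.2 and 13.17 on day 2, a difference of -0.46 (SE 0.25, adjusted p = 0.256). Otx2, the factor that opens formative enhancers, read 10.29 and 10.36 on day 3, against 10.69 and 10.79 on day 2, a difference of -0.42 (SE 0.75, adjusted p = 0.79). The standard errors of these genes come from the spread within all 13 groups, stem cells included. With the spread of the 4 EpiLC arrays alone, the adjusted p was 3.1e-06 for Fgf5, 3.42e-05 for Dnmt3a, 0.000496 for Dnmt3b and 0.00107 for Otx2, and in that fit 18 of the 28 genes fell while 3 rose. With the mean of the probe sets of a gene, Dnmt3a also passed (adjusted p = 0.0355). Krt18, a keratin of simple epithelia in the same list, read 12.07 and 12.15 on day 3, against 10.93 and 10.88 on day 2, a difference of 1.21 (SE 0.45, adjusted p = 0.0746).

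Core pluripotency genes, on in both naive and primed cells, also moved down. Of 14 tested, 8 fell (57.1%, against 9.69% of all genes) and none rose, with a median of -0.27. L1td1, an RNA-binding protein of pluripotent cells, read 10.46 and 10.45 on day 3, against 12.15 and 12.08 on day 2, and fell by 1.66 (SE 0.09, adjusted p = 1.51e-09). Dppa2, a chromatin factor, read 9.58 and 9.54 on day 3, against 10.9 and 10.77 on day 2, and fell by 1.28 (SE 0.19, adjusted p = 0.000112). The zinc finger factors Zscan10 and Sall4 were also lower: Zscan10 fell by 0.80 (SE 0.11, adjusted p = 5.59e-05) and Sall4 fell by 0.42 (SE 0.08, adjusted p = 0.00072). Tdgf1, the Nodal coreceptor, fell by 0.58 (SE 0.06, adjusted p = 1.07e-06). Pou5f1, which encodes Oct4, fell by 0.24 (SE 0.05, adjusted p = 0.00342) at levels of 12.37 and 12.32 on day 3, against 12.6 and 12.56 on day 2. Sox2, its partner, read 11.29 and 11.29 on day 3, against 11.26 and 11.28 on day 2, a difference of 0.02 (SE 0.10, adjusted p = 0.929).

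Naive genes moved in both directions. Of 22 tested, 5 rose and 5 fell (22.7% each, against 7.89% and 9.69% of all genes), with a median of 0.11. Tfcp2l1, a naive transcription factor held on by LIF, read 8.13 and 8.16 on day 3, against 6.73 and 6.81 on day 2, a rise of 1.38 (SE 0.29, adjusted p = 0.00243), and 11.69 and 12.03 in 2i. Klf5 read 8.75 and 8.98 on day 3, against 7.83 and 8.01 on day 2, a rise of 0.95 (SE 0.11, adjusted p = 9.4e-06), and 11.68 and 11.74 in 2i. Fbxo15, a target of Oct4 and Sox2, read 9.78 and 9.76 on day 3, against 8.87 and 9 on day 2, a rise of 0.84 (SE 0.19, adjusted p = 0.00341), and 12.17 and 12.23 in 2i. The T-box factor Tbx3 rose by 1.31 (SE 0.34, adjusted p = 0.0103) on its chosen probe set, while 4 further ones differed by between -1.22 and 2.28. Even on day 3, Tfcp2l1, Klf5, Fbxo15 and Tbx3 stood below their 2i levels on both arrays. In the other direction, Fgf4, the FGF ligand that pluripotent cells make themselves, read 9.08 and 9.33 on day 3, against 10.24 and 10.32 on day 2, and fell by 1.08 (SE 0.22, adjusted p = 0.00209). Morc1, a gene of germ cells and transposon silencing, fell by 0.50 (SE 0.11, adjusted p = 0.00251) and Gbx2 fell by 1.14 (SE 0.38, adjusted p = 0.0467). The naive markers Zfp42 and Nr0b1 also fell, as given above. Nanog read 10.73 and 10.83 on day 3, against 10.26 and 10.32 on day 2, a difference of 0.49 (SE 0.18, adjusted p = 0.0755), Esrrb 7.69 and 7.38 on day 3, against 6.98 and 7.25 on day 2, a difference of 0.42 (SE 0.27, adjusted p = 0.339), and Klf4 6.6 and 6.48 on day 3, against 5.98 and 6.11 on day 2, a difference of 0.50 (SE 0.36, adjusted p = 0.423). With the spread of the EpiLC arrays alone the adjusted p was 0.000383 for Nanog, 0.0523 for Esrrb and 0.0349 for Klf4, and in that fit 8 naive genes rose and 6 fell. The call of Gbx2 was lost without any 1 of the 4 arrays, without the intensity trend and when probe sets were averaged, and that of Tbx3 without 3 of the arrays in turn and when probe sets were averaged. Tfcp2l1 did not pass on that average either. The count of naive genes that fell was 2 without day 3 replicate 2 or day 2 replicate 2, and 3 without day 2 replicate 1. One further probe set each of Tfcp2l1 and Tbx3 differed in the opposite direction to the one used.

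**Figure D3:**
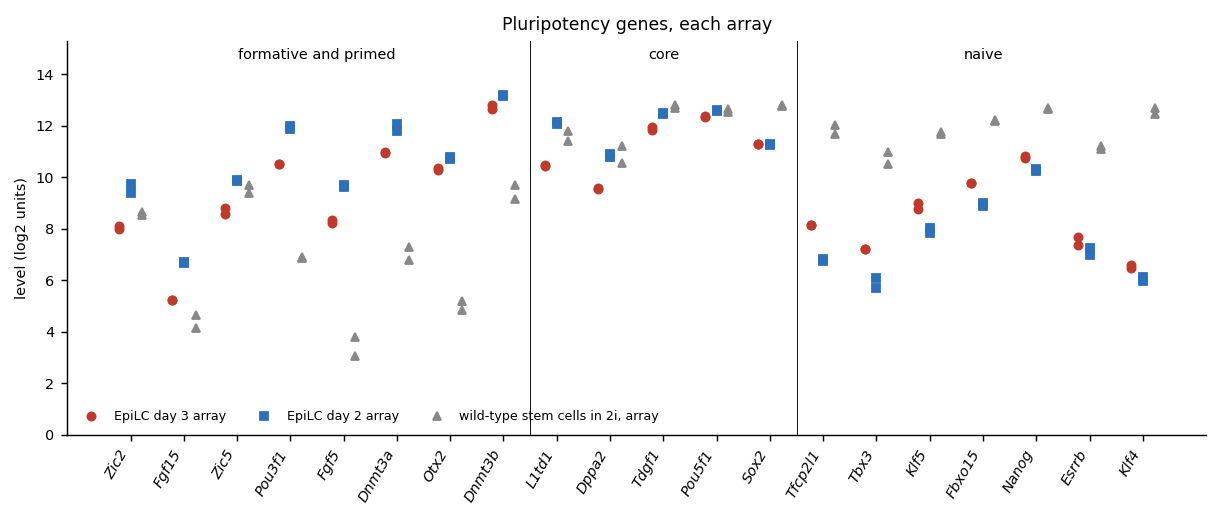
Levels (y axis, log2 units) of 20 pluripotency genes on each array of EpiLC day 3 (red circles), EpiLC day 2 (blue squares) and wild-type stem cells in 2i (grey triangles). Formative genes such as Pou3f1 and Fgf5 lie lower on day 3 than on day 2 and well above 2i, while Tfcp2l1 and Klf5 lie higher on day 3 than on day 2 and below 2i. Of the 22 naive genes tested 5 fell, and none of these is shown.

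The Nodal and activin pathway keeps the primed state and later patterns the streak. Of 24 genes tested, 5 fell and 2 rose, with a median of -0.19; the count of rises was 1 without any 1 of the 4 arrays. With all arrays, rises were 8.33% and falls 20.8% of the list, against 7.89% and 9.69% of all genes, so the rises were near that share. Lefty1, a secreted Nodal inhibitor and a target of the pathway, read 9.6 and 9.7 on day 3, against 10.84 and 10.81 on day 2, and fell by 1.18 (SE 0.25, adjusted p = 0.00252). The inhibitory Smad7 read 9.28 and 9.06 on day 3, against 10.03 and 10.05 on day 2, and fell by 0.87 (SE 0.17, adjusted p = 0.00143). Gdf3, a ligand of the family, fell by 0.65 (SE 0.10, adjusted p = 0.0001), and Tdgf1 fell as given above. The activin receptor Acvr2a rose by 0.59 (SE 0.11, adjusted p = 0.000865). Nodal itself read 9.37 and 9.33 on day 3, against 9.73 and 9.67 on day 2, a difference of -0.35 (SE 0.17, adjusted p = 0.2), and Lefty2 7.37 and 7.07 on day 3, against 8.33 and 8.33 on day 2, a difference of -1.11 (SE 0.38, adjusted p = 0.0533).

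In the BMP list, 1 of 24 genes passed. Id3, a BMP target that blocks differentiation factors, read 5.06 and 5.08 on day 3, against 6.84 and 7.16 on day 2, and fell by 1.93 (SE 0.23, adjusted p = 9.69e-06). Its relative Id1 read 6.17 and 6.3 on day 3, against 6.2 and 6.23 on day 2, a difference of 0.02 (SE 0.28, adjusted p = 0.977). Id2 read 7.33 and 6.87 on day 3, against 6.1 and 6.5 on day 2, a difference of 0.80 (SE 0.38, adjusted p = 0.18). Of 35 Wnt pathway genes 1 rose and 4 fell; the count of falls was 2 without day 3 replicate 1 and 1 without any of the other 3 arrays. With all arrays, falls were 11.4% of the Wnt list, near the 9.69% of all genes. Wls, the carrier that brings Wnt proteins to the cell surface, read 7.63 and 7.57 on day 3, against 5.84 and 6.3 on day 2, a rise of 1.53 (SE 0.14, adjusted p = 4.89e-07), though 1 of its 3 further probe sets differed in the opposite direction. Wnt8a, a ligand of the epiblast, read 2.78 and 3.14 on day 3, against 4.1 and 4.14 on day 2, and fell by 1.16 (SE 0.32, adjusted p = 0.016). The call of Wnt8a was lost in 3 of 4 fits with an array left out. FGF ligands and receptors had 2 falls among 14 (14.3%, against 9.69% of all genes), Fgf15 and Fgf4.

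Genes that respond to ERK moved in both directions. Of 22 tested, 7 rose and 4 fell, with a median of 0.43, and 2 fell without day 2 replicate 1 or replicate 2. With all arrays, rises were 31.8% and falls 18.2% of the list, against 7.89% and 9.69% of all genes. The feedback inhibitor Spry2 read 10.68 and 10.66 on day 3, against 9.86 and 9.82 on day 2, a rise of 0.83 (SE 0.10, adjusted p = 1.05e-05). Dusp6, a phosphatase that shuts ERK off, read 11.96 and 11.99 on day 3, against 11.26 and 11.32 on day 2, a rise of 0.69 (SE 0.11, adjusted p = 0.000186), above 8.03 and 8.09 in 2i, where MEK is inhibited. Junb, of the AP-1 factor, read 5.9 and 5.4 on day 3, against 4.38 and 4.61 on day 2, a rise of 1.16 (SE 0.16, adjusted p = 5.89e-05). Its partner Fos read 6.14 and 5.7 on day 3, against 4.75 and 4.36 on day 2, a rise of 1.37 (SE 0.25, adjusted p = 0.000588). Myc, an immediate early gene and growth factor target, read 7.84 and 7.73 on day 3, against 9.06 and 9.14 on day 2, and fell by 1.32 (SE 0.21, adjusted p = 0.000189), and Ier2 fell by 0.56 (SE 0.07, adjusted p = 2.91e-05).

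Genes of the LIF and STAT3 response rose. Of 19 tested, 8 rose (42.1%, against 7.89% of all genes) and none fell, with a median of 0.35. Stat3 read 7.67 and 7.43 on day 3, against 6.58 and 6.77 on day 2, a rise of 0.88 (SE 0.14, adjusted p = 0.000162). The kinase Pim1 read 12.27 and 12.24 on day 3, against 11.51 and 11.4 on day 2, a rise of 0.80 (SE 0.13, adjusted p = 0.000248). Its relative Pim3 read 10.79 and 10.81 on day 3, against 9.53 and 9.47 on day 2, a rise of 1.30 (SE 0.23, adjusted p = 0.000559). Zfp36, which binds and destabilizes messenger RNAs, rose by 1.31 (SE 0.20, adjusted p = 0.000147). Klf5, Tfcp2l1 and Junb are also in this list. Socs3, the feedback inhibitor of the receptor, read 7.15 and 7.08 on day 3, against 6.4 and 6.73 on day 2, a rise of 0.55 (SE 0.18, adjusted p = 0.0377) that lies outside the 6 members with the smallest p and was chosen after its value was seen. This call was lost without 3 of the 4 arrays in turn, without the intensity trend and when probe sets were averaged.

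Withdrawal of LIF from wild-type stem cells in serum was compared on arrays other than the EpiLC arrays. Both comparisons nevertheless took the spread of each gene from the same fit of all groups. A gene with a small spread therefore passes more easily in both, which can raise the overlaps below in any direction. How much of each overlap comes from this was not tested. After 2 days in serum without LIF, against serum with 1000 units per ml, 60 genes were higher (0.33% of all tested) and 213 lower (1.17%). Of the 1436 genes higher on day 3, 46 were lower without LIF (3.20% of the day 3 list and 21.6% of the LIF list) and 4 were higher. Of the 1762 genes lower on day 3, 34 were lower without LIF (1.93% and 16%) and 9 were higher. Tfcp2l1 differed by -1.84 without LIF (adjusted p = 0.00367), Fabp3 by -1.10 (adjusted p = 0.0463) and Ntn1 by -2.21 (adjusted p = 0.016), all lower, where the same genes rose on day 3. These genes were chosen among those already named. Mcemp1 was lower in both comparisons, and differed by -3.15 without LIF (adjusted p = 0.000259). Fgf15 was lower on day 3 and higher without LIF, by 1.02 (adjusted p = 0.0359).

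Genes of the actin cytoskeleton and targets of serum response factor (SRF) had the highest share of rises among the 47 lists. Of 36 tested, 28 rose and none fell (77.8%, against 7.89% of all genes), with a median of 0.80; the list was written after these values were seen and partly from them. SRF drives many of these genes when actin filaments assemble. Acta2, the smooth muscle actin, read 9.71 and 9.75 on day 3, against 7.97 and 8.01 on day 2, a rise of 1.74 (SE 0.13, adjusted p = 4.94e-08). Afap1, which crosslinks actin filaments, read 8.99 and 8.97 on day 3, against 7.03 and 7.27 on day 2, a rise of 1.83 (SE 0.18, adjusted p = 1.33e-06). Myh9, the heavy chain of non-muscle myosin, read 11.39 and 11.54 on day 3, against 10.43 and 10.61 on day 2, a rise of 0.95 (SE 0.10, adjusted p = 2.59e-06). Tagln, a filament-binding protein, read 10.06 and 10.16 on day 3, against 7.8 and 8.05 on day 2, a rise of 2.19 (SE 0.30, adjusted p = 3.79e-05). Csrp1, a partner of SRF, rose by 1.32 (SE 0.16, adjusted p = 1.22e-05), Actn1, an alpha-actinin, by 0.58 (SE 0.06, adjusted p = 1.29e-06) and Tpm4, a tropomyosin, by 0.74 (SE 0.10, adjusted p = 3.35e-05). In 2i cells Tagln stood at 5.18 and 5.37 and Acta1 at 3.56 and 4.02, below both days. Other named genes differed, as Afap1 stood at 9.39 and 9.35 in 2i, above both days, and Actn1 at 11.15 and 11.29, above day 2. Acta2, at 8.45 and 8.7 in 2i, Myh9, at 10.89 and 11.11, Csrp1 and Tpm4 lay between the days. Srf itself read 9.59 and 9.75 on day 3, against 9.26 and 9.28 on day 2, a difference of 0.40 (SE 0.18, adjusted p = 0.157), and the cytoplasmic Actb differed by -0.06 (SE 0.04, adjusted p = 0.407).

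SRF binds a sequence known as the CArG box. RefSeq promoters (mouse GRCm38.p6) ran from 250 bases before to 50 after a start. Among 33 list genes with a promoter, 10 held a CArG box in one, as did 229 of 14452 tested genes with a promoter. SRF targets were put in the list as such, so a high share with the box was set in part by that choice. Of the 10 genes 8 rose, beside 28 of 36 in the whole list. Cnn2, a calponin, read 11.19 and 11.24 on day 3, against 9.49 and 9.58 on day 2. Actc1, the cardiac actin, read 7.33 and 7.48 on day 3, against 4.87 and 5.34 on day 2. Myl9, a myosin light chain, read 10.46 and 10.56 on day 3, against 9.05 and 9.12 on day 2, with levels of 5.27 and 4.96 in 2i. These 3 genes were named for their motif, and the call of Myl9 as higher was lost without any 1 of the 4 arrays and without the intensity trend. Windows of their promoters and that of Acta1 show the box in capitals with 20 bases on each side, 5' to 3' on the gene's strand.
Acta1, chr8:123894819-123894868, minus strand: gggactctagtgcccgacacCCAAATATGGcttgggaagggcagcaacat
Actc1, chr2:114052893-114052942, minus strand: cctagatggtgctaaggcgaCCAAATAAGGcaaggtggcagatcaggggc
Cnn2, chr10:79988524-79988573, plus strand: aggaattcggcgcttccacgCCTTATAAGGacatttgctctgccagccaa
Myl9, chr2:156775283-156775332, plus strand: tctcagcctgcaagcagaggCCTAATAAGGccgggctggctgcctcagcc

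Targets of YAP and TEAD, which read tension and crowding, rose as well. Of 32 tested, 14 rose (43.8%, against 7.89% of all genes) and 2 fell, with a median of 0.52. The list was written after values were seen. Ccn2, a secreted matrix protein and standard readout of YAP, read 11.4 and 11.34 on day 3, against 9.86 and 9.86 on day 2, a rise of 1.51 (SE 0.10, adjusted p = 1.06e-08). Its relative Ccn1 read 10.78 and 10.84 on day 3, against 8.79 and 8.89 on day 2, a rise of 1.97 (SE 0.16, adjusted p = 1.6e-07). Thbs1, thrombospondin 1, read 7.04 and 7.15 on day 3, against 4.9 and 5.06 on day 2, a rise of 2.12 (SE 0.16, adjusted p = 6.62e-08). F3, tissue factor, read 8.17 and 7.92 on day 3, against 6.24 and 6.44 on day 2, a rise of 1.71 (SE 0.15, adjusted p = 3.43e-07). The phosphatase Ptpn21 rose by 1.46 (SE 0.13, adjusted p = 4.17e-07) and the kinase Nuak1 by 2.08 (SE 0.26, adjusted p = 1.32e-05). Of the 2 that fell, Cdc42ep3 fell by 0.84 (SE 0.14, adjusted p = 0.000355) and Dlc1 fell by 0.79 (SE 0.14, adjusted p = 0.000356). Yap1 read 10.42 and 10.46 on day 3, against 10.63 and 10.6 on day 2, a difference of -0.18 (SE 0.07, adjusted p = 0.0888).

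Some adhesion and basement membrane genes rose. Of 30 genes for cadherins, junctions and epithelial or mesenchymal state, 8 rose (26.7%, against 7.89% of all genes) and 1 fell. Their median was 0.27. The tight junction gene Cldn4 read 10.5 and 10.73 on day 3, against 9.57 and 9.61 on day 2, a rise of 1.03 (SE 0.13, adjusted p = 1.4e-05). Itgb1, the common integrin beta chain, read 9.19 and 9.08 on day 3, against 8.27 and 8.35 on day 2, a rise of 0.83 (SE 0.10, adjusted p = 1.66e-05), though 2 of its 5 further probe sets differed the other way. Crb3, a polarity gene, rose by 1.18 (SE 0.29, adjusted p = 0.00784), Dsp, desmoplakin, by 0.76 (SE 0.13, adjusted p = 0.000406) and Fn1, fibronectin, by 0.43 (SE 0.11, adjusted p = 0.00782). Cdh1 read 12.49 and 12.39 on day 3, against 12.34 and 12.36 on day 2, a difference of 0.09 (SE 0.07, adjusted p = 0.462), and Cdh2 7.12 and 6.86 on day 3, against 6.28 and 6.67 on day 2, a difference of 0.52 (SE 0.36, adjusted p = 0.398). The mesenchymal filament gene Vim, named after its value was seen, fell by 0.32 (SE 0.11, adjusted p = 0.0424), a call lost without any 1 of the 4 arrays, without the intensity trend and when probe sets were averaged. Of 17 basement membrane genes, 7 rose (41.2%, against 7.89% of all genes) and none fell, with a median of 0.44. Hspg2, perlecan, read 8.78 and 8.76 on day 3, against 7.97 and 7.89 on day 2, a rise of 0.84 (SE 0.18, adjusted p = 0.00308). The laminin chains Lamb1 and Lamc1 rose by 0.69 (SE 0.20, adjusted p = 0.0187) and 0.47 (SE 0.14, adjusted p = 0.025), and the collagen chain Col4a2 by 0.77 (SE 0.22, adjusted p = 0.0221). The count of basement membrane rises was 3 without day 3 replicate 1, 1 without day 3 replicate 2 and 2 without day 2 replicate 1 or replicate 2. That of adhesion rises was 5 without day 3 replicate 1, 4 without day 3 replicate 2 and 3 without day 2 replicate 1. Of the 4 fits that leave out an array, 4 lost the call of Lamb1, 3 those of Lamc1 and Col4a2, 2 that of Crb3 and 1 that of Fn1. Lamc1 also lost it without the intensity trend and with quantile normalization, and Itgb1, Dsp and Hspg2 with the mean of probe sets.

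Fibroblasts also express actin genes, and feeder markers were therefore set beside these lists. The 26 feeder fibroblast genes summed to 3519 to 3596 in signal on day 3, against 1863 to 1950 on day 2, and to 20081 to 21062 in 2i cells. Without Acta2, Tagln and Cnn1, which are in the actin list, the other 23 summed to 1337 to 1354 on day 3, against 1259 to 1290 on day 2, and to 19615 to 20664 in 2i cells, with 2 higher, 1 lower and a median of -0.09. The count of feeder genes that rose was 4 of 26, and 2 without day 3 replicate 1, and that of falls was 1, and 0 without day 3 replicate 2 or day 2 replicate 1. Col1a1, the main fibroblast collagen, read 2.61 and 2.36 on day 3, against 2.44 and 3.04 on day 2, while 2i cells had 9.81 and 9.58. Col3a1, another, read 3.23 and 3.24 on day 3, against 3.38 and 3.35 on day 2, while 2i cells had 12.41 and 12.23. No feeder marker was at 0 on both arrays of a day.

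Lysosome genes rose in large number. Of 41 tested, 23 rose and none fell (56.1%, against 7.89% of all genes), with a median of 0.53; this list too was written after values were seen. Hexa, a chain of the enzyme that degrades gangliosides, read 10.91 and 10.95 on day 3, against 9.69 and 9.56 on day 2, a rise of 1.31 (SE 0.11, adjusted p = 2.3e-07). Lamp2, a major protein of the lysosomal membrane, read 10.82 and 10.79 on day 3, against 9.42 and 9.52 on day 2, a rise of 1.34 (SE 0.13, adjusted p = 7.64e-07). Neu1, the lysosomal sialidase, read 8.64 and 8.6 on day 3, against 6.95 and 7.1 on day 2, a rise of 1.60 (SE 0.19, adjusted p = 7.25e-06). The protease Ctsl rose by 0.66 (SE 0.06, adjusted p = 2.43e-07) and the fucosidase Fuca2 by 1.19 (SE 0.11, adjusted p = 4.34e-07). Mcoln1, a calcium channel of the lysosome, read 9.01 and 9.12 on day 3, against 8.36 and 8.4 on day 2, a rise of 0.69 (SE 0.09, adjusted p = 2.99e-05). In 2i cells Hexa stood at 11.24 and 11.28, Lamp2 at 11.58 and 11.72 and Ctsl at 12.52 and 12.39, above both days. Neu1, at 7.65 and 7.16 in 2i, Fuca2, at 8.12 and 8.01, and Mcoln1, at 8.78 and 8.67, lay between the days. Of 20 subunits of the vacuolar proton pump, which acidifies the lysosome, 7 rose and none fell. Atp6v0b read 9.41 and 9.51 on day 3, against 8.55 and 8.6 on day 2, a rise of 0.89 (SE 0.11, adjusted p = 1.15e-05). With the mean of all probe sets of a gene in place of 1, 4 of the 20 rose.

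The factors TFEB and TFE3 switch on lysosome genes through a short element, and the folliculin complex holds TFE3 in the cytoplasm; in mouse stem cells this complex is needed to leave the naive state. Flcn, folliculin, read 9.91 and 9.9 on day 3, against 8.76 and 8.8 on day 2, a rise of 1.13 (SE 0.12, adjusted p = 1.9e-06). Its partner Fnip1 read 9.35 and 9.33 on day 3, against 8.19 and 8.34 on day 2, a rise of 1.08 (SE 0.12, adjusted p = 6.06e-06). Rragc, a GTPase of the same switch, rose by 0.85 (SE 0.12, adjusted p = 7.04e-05), and Rraga fell by 0.78 (SE 0.09, adjusted p = 4.06e-06). In the list of 23 genes of this pathway 6 rose and 2 fell, with a median of 0.00, and 1 fell without day 3 replicate 1, day 3 replicate 2 or day 2 replicate 1. Tfe3 read 7.87 and 8.03 on day 3, against 8.28 and 8.37 on day 2, a difference of -0.38 (SE 0.14, adjusted p = 0.0643), and Tfeb 4.2 and 4.61 on day 3, against 5.35 and 4.86 on day 2, a difference of -0.70 (SE 0.28, adjusted p = 0.0967). Among 30 autophagy genes 6 rose and none fell, with 3 rises without day 3 replicate 1 or day 2 replicate 1. Both lists were written after values were seen. Gabarap, which coats the autophagosome, read 10.03 and 10.21 on day 3, against 8.95 and 9.03 on day 2, a rise of 1.13 (SE 0.09, adjusted p = 1.79e-07).

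The core of the TFE element, GTCACGTG, was searched on both strands. It was found in a RefSeq promoter of 13 of the 50 genes with one in the lysosome and pump lists. The share was 3.77% among 14452 tested genes with a promoter. Lysosome genes were listed as such, so a high share with the core was set in part by that choice. Of the 13 genes 8 rose, beside 23 of 41 in the lysosome list and 7 of 20 in the pump list. Both lists were written after values were seen. Lamp1, Ctsd and Lgmn, a membrane protein and a pair of proteases named here for the motif, rose by 0.38 (SE 0.07, adjusted p = 0.000755), 0.70 (SE 0.09, adjusted p = 3.11e-05) and 0.69 (SE 0.16, adjusted p = 0.00459). Their windows stand with those of Atp6v0b and Mcoln1, motif in capitals with 20 bases on each side, so that the element can be seen in its place, with 1 of the 2 matches in Mcoln1 and in Ctsd; a match describes the letters alone.
Atp6v0b, chr4:117887340-117887387, minus strand: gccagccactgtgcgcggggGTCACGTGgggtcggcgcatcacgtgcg
Mcoln1, chr8:3500426-3500473, plus strand: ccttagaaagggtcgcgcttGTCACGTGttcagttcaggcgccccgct
Lamp1, chr8:13159113-13159160, plus strand: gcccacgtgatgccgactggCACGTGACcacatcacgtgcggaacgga
Ctsd, chr7:142387898-142387945, minus strand: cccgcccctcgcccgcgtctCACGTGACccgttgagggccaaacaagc
Lgmn, chr12:102439116-102439163, minus strand: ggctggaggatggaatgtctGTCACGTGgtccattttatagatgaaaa

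**Figure D4:**
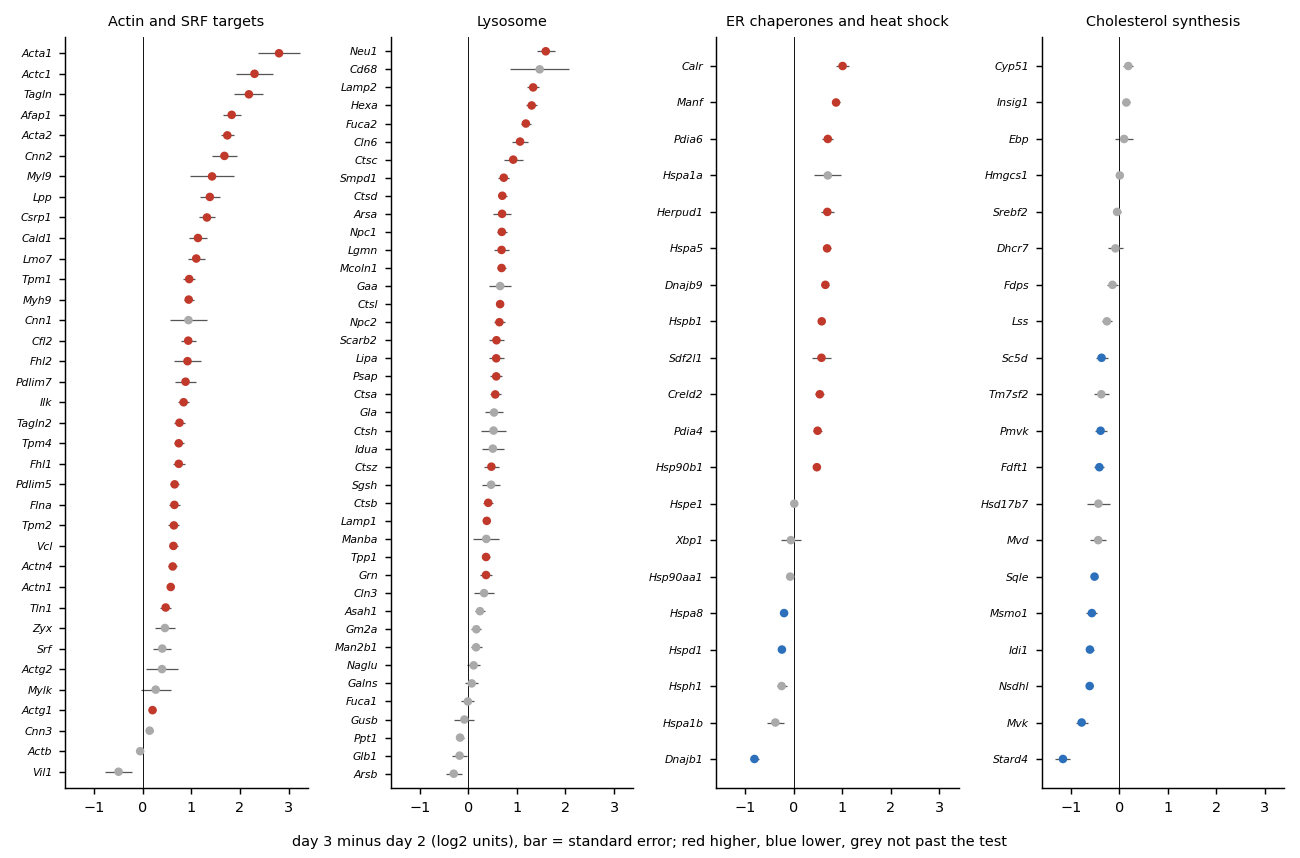
Difference day 3 minus day 2 (x axis, log2 units) of each tested member of 4 lists, with its standard error as a bar; red points passed as higher on day 3, blue points as lower, and grey points did not pass. Among actin genes 28 of 36 points are red, among lysosome genes 23 of 41, among unfolded protein response and heat shock genes 11 of 20, and among cholesterol genes 9 of 20 are blue.

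Of 20 genes of the unfolded protein response and heat shock, 11 rose and 3 fell, with a median of 0.51. As background, proteins of the endoplasmic reticulum (ER) and of the cytoplasm are both in the list; all that rose except Hspb1 encode ER proteins, and none of those that fell does. Manf, an ER stress factor, read 12.2 and 12.15 on day 3, against 11.34 and 11.27 on day 2, a rise of 0.87 (SE 0.09, adjusted p = 1.89e-06). Hspa5, the main ER chaperone BiP, read 12.85 and 12.92 on day 3, against 12.26 and 12.14 on day 2, a rise of 0.69 (SE 0.07, adjusted p = 2.33e-06). Hsp90b1, the ER form of Hsp90, read 12.7 and 12.67 on day 3, against 12.22 and 12.2 on day 2, a rise of 0.48 (SE 0.05, adjusted p = 3.96e-06). Dnajb9, a cochaperone of BiP, rose by 0.65 (SE 0.08, adjusted p = 1.33e-05). The small heat shock protein Hspb1, which works in the cytoplasm, rose by 0.58 (SE 0.07, adjusted p = 6.06e-06), and Dnajb1, a cochaperone of the cytoplasm, fell by 0.81 (SE 0.09, adjusted p = 6.35e-06). The other 2 that fell (1 gene fell without day 3 replicate 2), named after their values were seen, were the cytoplasmic Hspa8, which fell by 0.20 (SE 0.04, adjusted p = 0.00236) and the mitochondrial Hspd1, which fell by 0.25 (SE 0.06, adjusted p = 0.00502). Dnajb1 did not pass with the probe set highest in EpiLC. Xbp1, a transcription factor of the ER response, read 10.54 and 10.57 on day 3, against 10.65 and 10.58 on day 2, a difference of -0.06 (SE 0.21, adjusted p = 0.897).

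The ER stress element is CCAAT and CCACG spaced by 9 bases, on either strand. It was found in 5 of 17 genes of this list with a promoter (29.4%). Of 14452 tested genes with a promoter, 20 held it (0.138%). Genes of the ER response were put in the list as such, so a high share was set in part by that choice. All 5 genes with the element rose, beside 11 of 20 in the whole list. Calr, calreticulin, Pdia6, a disulfide isomerase, and Creld2 were named for the element. They rose by 1.01 (SE 0.13, adjusted p = 2.89e-05), 0.70 (SE 0.11, adjusted p = 0.000215) and 0.54 (SE 0.09, adjusted p = 0.00028). The element is in capitals in the windows of the 5 genes, of which Calr and Creld2 carry it on the opposite strand, and Hsp90b1 holds 1 on each strand.
Hspa5, chr2:34772005-34772063, plus strand: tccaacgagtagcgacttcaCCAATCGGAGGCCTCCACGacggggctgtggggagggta
Hsp90b1, chr10:86705618-86705676, minus strand: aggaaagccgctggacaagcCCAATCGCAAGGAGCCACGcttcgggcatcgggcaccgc
Calr, chr8:84847055-84847113, minus strand: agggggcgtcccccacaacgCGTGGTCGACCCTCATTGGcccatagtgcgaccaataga
Pdia6, chr12:17266471-17266529, plus strand: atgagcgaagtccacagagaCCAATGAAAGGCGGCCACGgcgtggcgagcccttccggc
Creld2, chr15:88819500-88819558, plus strand: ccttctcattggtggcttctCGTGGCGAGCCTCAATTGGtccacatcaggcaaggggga

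Other stress genes gave a mixed picture. Of 30 genes of amino acid stress and the integrated stress response, 4 rose and 5 fell, with a median of 0.01. Ddit3, which encodes CHOP, read 10.3 and 10.24 on day 3, against 8.28 and 8.32 on day 2, a rise of 1.97 (SE 0.19, adjusted p = 7.64e-07). Chac1, a glutathione-degrading enzyme induced by the same pathway, read 9.25 and 9.37 on day 3, against 10.38 and 10.33 on day 2, and fell by 1.05 (SE 0.21, adjusted p = 0.00133). Ddit4, an inhibitor of mTOR signalling, read 10.96 and 11 on day 3, against 12.11 and 11.99 on day 2, and fell by 1.07 (SE 0.09, adjusted p = 2.3e-07). Asns, asparagine synthetase, rose by 0.22 (SE 0.05, adjusted p = 0.004), and the serine pathway enzyme Psph fell by 0.46 (SE 0.11, adjusted p = 0.00538). The count of rises was 2 without any 1 of the 4 arrays, and that of falls 3 without day 2 replicate 1; the call of Psph was lost in 1 of these 4 fits.

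Genes of sterol synthesis fell. Of 20 cholesterol genes, 9 fell and none rose (45.0%, against 9.69% of all genes), with a median of -0.38. Stard4, a sterol carrier, read 8.83 and 8.73 on day 3, against 9.96 and 9.92 on day 2, and fell by 1.16 (SE 0.15, adjusted p = 3.11e-05). Mvk, mevalonate kinase, read 6.68 and 6.94 on day 3, against 7.6 and 7.57 on day 2, and fell by 0.78 (SE 0.12, adjusted p = 0.00019). Idi1, which makes an isoprene unit, read 10.57 and 10.51 on day 3, against 11.11 and 11.18 on day 2, and fell by 0.61 (SE 0.08, adjusted p = 3.8e-05). Nsdhl, a late enzyme, fell by 0.61 (SE 0.08, adjusted p = 1.97e-05), Sqle, squalene epoxidase, fell by 0.51 (SE 0.07, adjusted p = 6.45e-05) and Msmo1, a methylsterol oxidase, fell by 0.57 (SE 0.11, adjusted p = 0.00154). Hmgcs1, an early enzyme of the path, differed by 0.01 (SE 0.07, adjusted p = 0.95), and Srebf2, the factor that drives the path, by -0.05 (SE 0.07, adjusted p = 0.755). A promoter motif, the sterol element, was searched for this list as the motifs above were for theirs. It was found in 0 of 16 list genes with a promoter, against 9 of 14452 tested genes with a promoter (0.062%). With a share this low among all genes, its absence does not set the list apart.

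Glycolysis and hypoxia genes moved in both directions. Of 22 glycolysis genes, 6 fell and 4 rose, with a median of -0.10; without day 3 replicate 2 the count of rises was 2. Pdk1, the kinase that keeps pyruvate from the mitochondria, read 9.95 and 9.89 on day 3, against 10.8 and 10.86 on day 2, and fell by 0.91 (SE 0.13, adjusted p = 8.96e-05). Tpi1, a glycolytic isomerase, fell by 0.42 (SE 0.07, adjusted p = 0.000269), Ldha, lactate dehydrogenase, fell by 0.30 (SE 0.06, adjusted p = 0.00247) and Hk2, hexokinase 2, fell by 0.49 (SE 0.11, adjusted p = 0.00402). Slc2a3, a glucose carrier, read 12.78 and 12.82 on day 3, against 12.01 and 11.89 on day 2, a rise of 0.85 (SE 0.15, adjusted p = 0.000396). Pfkfb3, which stimulates phosphofructokinase, read 7.45 and 7.25 on day 3, against 5.87 and 6.09 on day 2, a rise of 1.37 (SE 0.25, adjusted p = 0.000703). Among 20 hypoxia genes 6 fell and 2 rose. Bnip3, a mitophagy receptor, read 9.36 and 9.45 on day 3, against 10.71 and 10.8 on day 2, and fell by 1.35 (SE 0.14, adjusted p = 1.69e-06). Egln3, an oxygen sensor, fell by 1.15 (SE 0.17, adjusted p = 9.96e-05). Bhlhe40, a repressor, read 8.6 and 8.72 on day 3, against 7.21 and 7.41 on day 2, a rise of 1.35 (SE 0.18, adjusted p = 3.24e-05), and Adm, adrenomedullin, rose by 1.18 (SE 0.19, adjusted p = 0.000164). Hif1a read 11.22 and 11.17 on day 3, against 11.15 and 11.01 on day 2, a difference of 0.12 (SE 0.06, adjusted p = 0.257). Of 29 genes of oxidative phosphorylation 2 rose and 1 fell, and their differences had a median of 0.04; the rises numbered 1 without day 3 replicate 1 or replicate 2 and 0 without day 2 replicate 2, and the falls 0 without day 3 or day 2 replicate 1. The call of Hk2 was lost in 1 of 4 fits with an array left out.

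Mycn and Myc fell, and more ribosome biogenesis and proteasome genes fell than rose. Of 11 genes of the MYC family and its partners 2 fell, Mycn and Myc, and Mnt, an antagonist, and Mga rose, by 0.41 (SE 0.11, adjusted p = 0.0107) and 0.43 (SE 0.14, adjusted p = 0.0385). The count of these rises was 1 without day 3 replicate 2 and 0 without any of the other 3 arrays. Ribosome biogenesis, a well-known MYC output, had 15 falls and 3 rises among 47, with a median of -0.13, and 1 rise without day 3 replicate 2 or day 2 replicate 2. Nop2, an RNA methyltransferase of the nucleolus, read 9.83 and 9.86 on day 3, against 10.62 and 10.55 on day 2, and fell by 0.74 (SE 0.08, adjusted p = 3.13e-06). Utp3, of the same compartment, fell by 0.82 (SE 0.06, adjusted p = 4.21e-08) and Rrp1b fell by 1.06 (SE 0.12, adjusted p = 7.59e-06), but the probe set of Rrp1b that was highest in EpiLC differed by 0.05 (adjusted p = 0.833), and the mean of the probe sets of Mga by -0.06 (adjusted p = 0.919). Of 49 proteasome subunits and regulators 16 fell and none rose, with a median of -0.16, and the count of falls was 6 without day 2 replicate 1 and 9 without day 3 replicate 1. The 26S proteasome degrades tagged proteins. All 3 lists were written after values were seen.

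S phase genes fell in 7 of 24 cases (29.2%, against 9.69% of all genes), with no rise and a median of -0.15. Ccne2, a cyclin that starts replication, read 7.38 and 6.98 on day 3, against 7.97 and 8.13 on day 2, and fell by 0.87 (SE 0.11, adjusted p = 2.58e-05). Ccne1 fell by 0.51 (SE 0.10, adjusted p = 0.000937), Rrm2, which makes deoxynucleotides, fell by 0.44 (SE 0.06, adjusted p = 9.42e-05) and Gins1 fell by 0.49 (SE 0.07, adjusted p = 0.00011). G2 and mitosis genes rose in 4 of 24 cases (16.7%, against 7.89% of all genes), with no fall and a median of 0.10. Mki67, the marker of cycling cells, read 10.38 and 10.55 on day 3, against 9.91 and 10.08 on day 2, a rise of 0.47 (SE 0.09, adjusted p = 0.000898). Nusap1, of the spindle, rose by 0.29 (SE 0.08, adjusted p = 0.0153). The count of rises was 1 without day 3 replicate 1 and 2 without day 2 replicate 1 or replicate 2. Of 21 p53 and apoptosis genes 4 rose and 1 fell; 2 rose without day 2 replicate 1 or replicate 2, and none fell without day 3 replicate 2, day 2 replicate 1 or day 2 replicate 2. Perp, a p53 target of epithelial junctions, read 8.28 and 8 on day 3, against 6.67 and 6.89 on day 2, a rise of 1.36 (SE 0.19, adjusted p = 4.13e-05), and Bcl2, which blocks apoptosis, rose by 0.94 (SE 0.22, adjusted p = 0.00435). Of the 4 fits with an array left out, 2 lost the call of Nusap1 and 1 that of Bcl2.

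Each list of lineage genes held 4 calls or fewer. With all arrays, falls were 5.56% of the primitive streak list and 11.5% of the neuroectoderm list, against 9.69% of all genes. Of 36 primitive streak and mesendoderm genes, 1 rose and 2 fell. None rose without day 3 replicate 1, day 3 replicate 2 or day 2 replicate 2, and the falls numbered 0 without day 3 replicate 2 or day 2 replicate 1 and 1 without day 2 replicate 2. Eomes, an early streak factor, read 6 and 6.01 on day 3, against 6.14 and 6.22 on day 2, a difference of -0.18 (SE 0.20, adjusted p = 0.631). Of 26 neuroectoderm genes 3 fell and none rose, with 1 fall at most when an array was left out, and 1 rise without day 2 replicate 2. The homeobox gene Irx3 fell by 1.20 (SE 0.31, adjusted p = 0.00947), Hesx1 fell by 0.86 (SE 0.27, adjusted p = 0.0352), and the third was Gbx2, given above; among fits that leave out an array, 2 of 4 lost the call of Irx3 and 3 that of Hesx1, which was also lost in the fit of the EpiLC arrays alone and without the intensity trend. Extraembryonic endoderm genes rose in 4 of 24 cases (16.7%, against 7.89% of all genes; 2 without day 3 replicate 1 or day 2 replicate 1, and 1 without day 3 replicate 2 or day 2 replicate 2), and 3 of these, Lamb1, Lamc1 and Col4a2, are matrix genes described above. The fourth, Apoe, a lipid carrier, read 11.86 and 11.93 on day 3, against 10.67 and 10.74 on day 2, a rise of 1.19 (SE 0.18, adjusted p = 0.000116). Gata4, a factor of that lineage, read 3.07 and 2.88 on day 3, against 3.5 and 3.58 on day 2. Gata6, another, read 3.89 and 4.19 on day 3, against 3.91 and 4.15 on day 2. Trophoblast genes rose in 3 of 19 cases (15.8%). Besides Gata3 these were Krt8, a keratin, at 9.24 and 9.29 on day 3, against 7.83 and 7.91 on day 2, a rise of 1.40 (SE 0.32, adjusted p = 0.00488), and Tfap2c, at 8.15 and 7.8 on day 3, against 7.19 and 7.24 on day 2, a rise of 0.76 (SE 0.23, adjusted p = 0.0298). The call of Tfap2c was lost without 3 of the 4 arrays in turn, without the intensity trend and when probe sets were averaged. Cdx2, which defines that lineage, read 1.64 and 1.41 on day 3, against 1.73 and 1.16 on day 2. None of 33 HOX genes passed by limma with all arrays, 3 had an unadjusted p under 0.05, while 2 rose without day 2 replicate 1, 1 rose without day 2 replicate 2 and 1 fell without day 3 replicate 1. Hoxd3 had the smallest p, with a difference of -1.07 (SE 0.38, adjusted p = 0.0612).

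Germ cell genes were read because both reporters mark that lineage. Prdm14 read 2.69 and 3.12 on day 3, against 2.93 and 3.2 on day 2, a difference of -0.16 (SE 0.41, adjusted p = 0.855). Prdm1, which encodes Blimp1, read 4.68 and 4.67 on day 3, against 5.14 and 5.11 on day 2, a difference of -0.45 (SE 0.36, adjusted p = 0.472). Dppa3, which encodes Stella, read 8.78 and 8.77 on day 3, against 7.85 and 7.99 on day 2, a difference of 0.86 (SE 0.73, adjusted p = 0.505). The 1 of 16 primordial germ cell genes that passed was Tfap2c, whose call was kept in 1 of the 4 fits that leave out an array, the one without day 3 replicate 2. Among 22 germline genes silenced by promoter methylation Sycp3, of the meiotic chromosome axis, rose, at 10.83 and 10.78 on day 3, against 9.63 and 9.85 on day 2, a rise of 1.07 (SE 0.35, adjusted p = 0.0432). That call was lost without any 1 of the 4 arrays, without the intensity trend (adjusted p = 0.0809) and with the mean of all probe sets (adjusted p = 0.0531). Ddx4 read 9.31 and 9.23 on day 3, against 8.46 and 8.51 on day 2, a difference of 0.79 (SE 0.37, adjusted p = 0.174).

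Of 11 DNA methylation genes 2 passed, a share near the 17.6% of all genes. Zfp57, which protects imprints, rose by 0.72 (SE 0.14, adjusted p = 0.000937) at 6.81 and 6.93 on day 3, against 6.11 and 6.19 on day 2, and Mbd3 fell by 0.36 (SE 0.08, adjusted p = 0.00455); the count of falls was 0 without day 2 replicate 2, and Mbd3 lost its call in 2 of the 4 fits with an array left out. Dnmt1, the maintenance enzyme, read 10.62 and 10.76 on day 3, against 10.9 and 10.88 on day 2, a difference of -0.20 (SE 0.08, adjusted p = 0.1), and Dnmt3l 9.89 and 9.8 on day 3, against 10.12 and 10.17 on day 2, a difference of -0.30 (SE 0.17, adjusted p = 0.276). Of 12 genes of the TET and base excision path, Gadd45b and Gadd45g rose and Tet1 and Apex1 fell. Gadd45g read 8.95 and 8.87 on day 3, against 7.07 and 7.16 on day 2, a rise of 1.80 (SE 0.30, adjusted p = 0.000291). Tet1, a methylcytosine oxidase, read 10.36 and 10.46 on day 3, against 11.1 and 11.17 on day 2, and fell by 0.73 (SE 0.07, adjusted p = 9.65e-07), with 1 of 3 further probe sets differing the other way. Apex1, a repair nuclease, read 10.49 and 10.5 on day 3, against 11.23 and 11.13 on day 2, and fell by 0.69 (SE 0.09, adjusted p = 2.19e-05). Of 27 imprinted genes 5 rose and 3 fell. These are 18.5% and 11.1% of the list, against 7.89% and 9.69% of all genes, and the polycomb list below has the same shares. Sgce read 7.87 and 7.84 on day 3, against 6.56 and 6.72 on day 2, a rise of 1.22 (SE 0.20, adjusted p = 0.000258), and Peg12 3.17 and 2.41 on day 3, against 4.42 and 4.4 on day 2, and fell by 1.62 (SE 0.50, adjusted p = 0.0302). Of 27 polycomb genes 5 rose and 3 fell, among them Cbx2, which compacts chromatin, at 6.91 and 7.04 on day 3, against 7.97 and 8.05 on day 2, and fell by 1.04 (SE 0.22, adjusted p = 0.00245), and Pcgf5, at 9.27 and 9.35 on day 3, against 8.48 and 8.5 on day 2, a rise of 0.82 (SE 0.19, adjusted p = 0.00536). The count of imprinted genes that rose was 3 without day 3 replicate 1 or day 2 replicate 2 and 1 without the other arrays, and that of polycomb genes was 1 without day 3 or day 2 replicate 1 and 2 without day 3 or day 2 replicate 2. Falls among imprinted genes numbered 1 without day 3 replicate 2 or day 2 replicate 1 and 0 without day 2 replicate 2, and among polycomb genes 1 without day 2 replicate 1 or replicate 2. The call of Peg12 was lost without 3 of the 4 arrays in turn and without the intensity trend, and that of Cbx2 with the mean of probe sets.

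Many zinc finger genes were lower on day 3. Of 336 genes with a Zfp symbol, 110 fell and 8 rose (32.7% lower, against 9.69% of all genes), and 260 had a negative difference. The median was -0.33, and 42 fell at least 2-fold (12.5%, against 2.03% of all genes). Many of these genes encode KRAB zinc finger proteins, which silence transposons. Zfp770 read 6.84 and 6.61 on day 3, against 8.38 and 8.62 on day 2, and fell by 1.78 (SE 0.12, adjusted p = 1.73e-08). Zfp62 read 4.84 and 4.64 on day 3, against 6.45 and 6.69 on day 2, and fell by 1.83 (SE 0.17, adjusted p = 5.07e-07). Zfp959 read 4.89 and 4.11 on day 3, against 6.34 and 6.38 on day 2, and fell by 1.86 (SE 0.19, adjusted p = 1.35e-06), and Zfp239 6.18 and 6.22 on day 3, against 7.66 and 7.64 on day 2, and fell by 1.45 (SE 0.12, adjusted p = 2.43e-07). In 2i cells Zfp62 stood at 7.53 and 7.6 and Zfp959 at 6.69 and 6.95, above both days. Zfp770 stood at 8.36 and 8.48 in 2i, close to day 2, and Zfp239 at 7.04 and 7.14, between the days. The median level of the Zfp genes was 6.47, near the 6.19 of all genes. Zfp36 and Zfp57, described above, were among the 8 that rose. The related BTB family, with a Zbtb symbol, had 10 falls and no rise among 40, with a median of -0.19. Zbtb45 read 5.33 and 5.32 on day 3, against 6.55 and 6.54 on day 2, and fell by 1.22 (SE 0.26, adjusted p = 0.00238). The count of Zbtb falls was 3 without day 3 replicate 2 or day 2 replicate 2 and 6 without day 2 replicate 1. Both groups of genes were picked after their values were seen. Zinc finger genes are similar in sequence, so a probe set may read more than 1 of them.

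**Figure D5:**
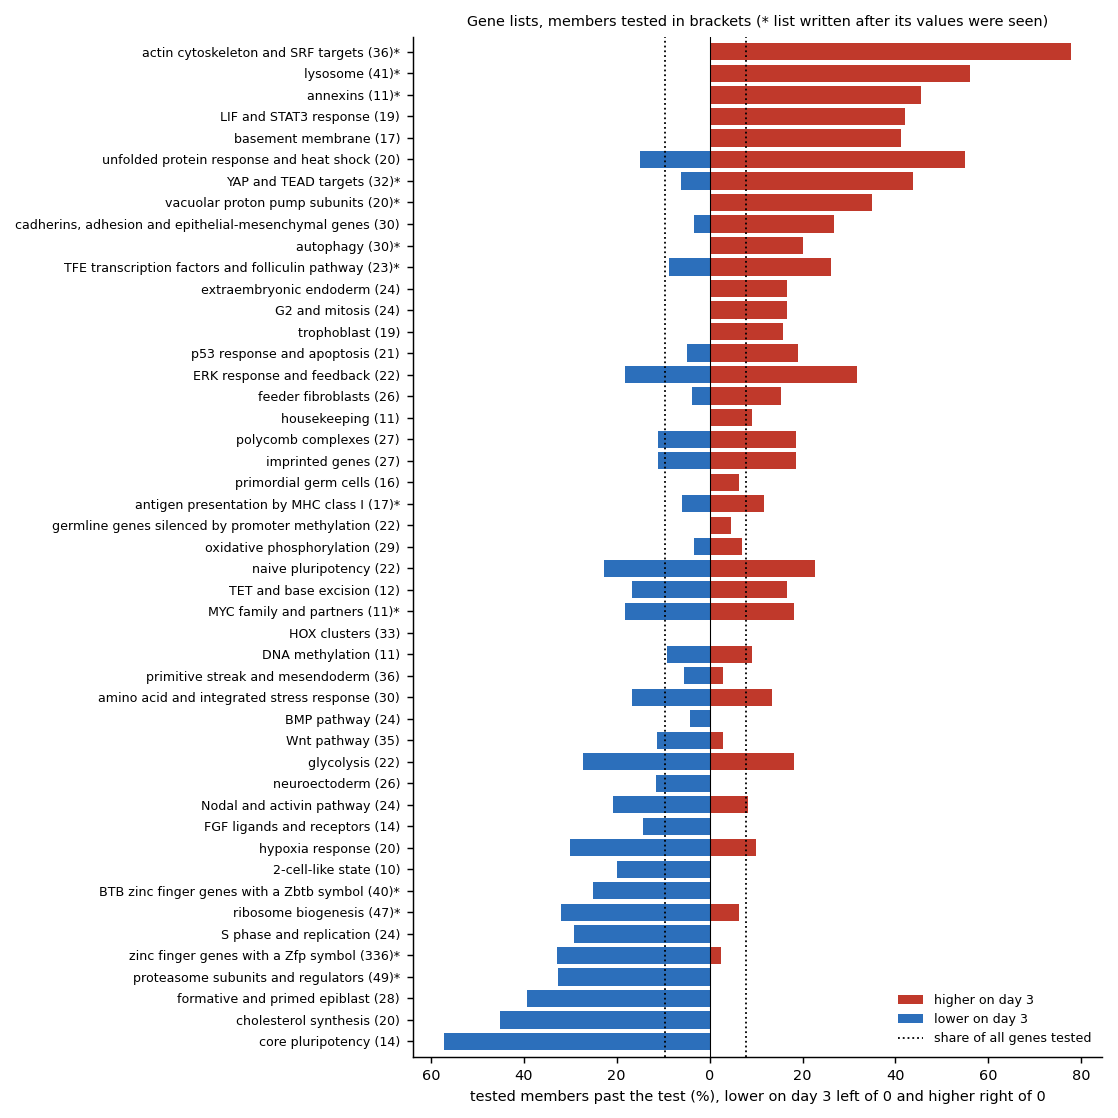
Share of the tested members of each of 47 gene lists (x axis, %) that passed as higher on day 3 (red, right of 0) or lower (blue, left of 0), ordered by the difference. Dotted lines mark the shares among all genes, 7.89% higher and 9.69% lower; actin, lysosome and unfolded protein response lists exceed them to the right, and core pluripotency, cholesterol and formative lists to the left.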

How the data were processed

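Messenger RNA was measured on Affymetrix Mouse Genome 430 2.0 arrays, 1 array a sample. RNA was purified with an RNeasy Micro kit and labelled by the one-cycle procedure, per the labels' protocols. The authors deposited 1 table of 45100 probe sets with log2-scale intensities. The log base is inferred: the highest value, 13.89, corresponds to 15181 in base 2 and to 1077334 in base e. The sources used here do not give how the authors normalized the values, and 1 unit could hold more or less than a 2-fold difference if that inference is wrong. Values were used as deposited.

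Of the probe sets, 64 were controls, 34944 carried 1 gene symbol, 932 several and 9160 none in the platform annotation used here; those with 1 symbol gave 18193 genes, 18032 of them matched to RefSeq by gene ID. Of 9010 genes with several probe sets, the one with the highest mean over 26 arrays was kept. limma 3.58.1 (R 4.3.3) fitted 1 mean per group over 13 groups and 26 arrays, with eBayes and an intensity trend (13 residual and 5.05 prior degrees of freedom), a two-sided test and Benjamini-Hochberg adjustment over all genes, called at an adjusted p under 0.05. Standard errors are those of the moderated fit. No set test was run. The number of arrays limits the precision. The same fit, tested on simulated data of 18193 genes for the comparison of the days, recovered 21 of 67 genes changed 1.5-fold, 41 of 67 changed 2-fold and 54 of 66 changed 4-fold, and called 4 unchanged genes. Far fewer genes were changed there than passed in the data, and each gene had the same spread in every group. Recovery in the data can therefore differ from these counts.

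Samples were grouped by their titles. Genes named were the 12 largest differences in each direction among called genes with arrays that do not overlap, up to 6 members of each list with the smallest p, members given as not passing, and Prdm14, Prdm1 and Dppa3. Zfp42 and Nr0b1 were named as naive markers that fell, after their values were seen. Members of 13 of the 47 lists, and genes named for a promoter motif, were chosen after their values were seen, some for their rise, so their counts describe these arrays alone. All lists and tests were chosen with earlier results of these data known. Alternatives covered the arrays in the fit, the trend, normalization, the choice of probe set, filters on dim genes and on zeros, the replicate number as a block, and leaving out each EpiLC array. Promoters came from RefSeq (GRCm38.p6), and motifs were searched on both strands.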

Additional observations from a re-analysis of the deposited data

How the results depend on the processing

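Against 3198 genes that passed between the days, the 9 alternatives that kept all EpiLC arrays gave between 2491 (mean of probe sets) and 4316 (the 4 EpiLC arrays fitted alone), and the count of genes changed at least 2-fold ran from 436 to 640 against 613. Leaving out each EpiLC array gave 2042 to 2390 genes, and 522 to 674 at least 2-fold. The replicate number as a block gave 3466 genes (629 at least 2-fold), and as a block for the EpiLC arrays alone 3115; deviations of same-numbered arrays correlated at 0.016 over genes, so the numbers are not shown to pair the arrays. With that block Nanog (adjusted p = 0.0212), Fgf5 (0.0413) and Dnmt3a (0.0397) passed, and with the block for the EpiLC arrays alone they did not (0.0886, 0.215 and 0.0932); that second block also lost the calls of Gbx2, Vim, Irf1, Sycp3 and Klrb1a. Genes called between the days and on LIF withdrawal numbered 93. That number was 140 when dim genes were dropped, 58 when probe sets were averaged, 52 when no intensity trend was fitted and 150 under the replicate block; the cause was not tested. Of 179 named genes that passed, 145 passed in all 9 alternatives that kept the EpiLC arrays and 126 in all 13; the sign turned for Dido1 (0.025) and Rrp1b (0.045) with the probe set highest in EpiLC and for Mga (-0.057) with the mean of probe sets, where another probe set is read. Zfp42 and Nr0b1 are not among these 179 genes. Besides losses given with the genes, the mean of probe sets lost the calls of Acta2, Actn1, Anxa2, Ccdc89, Ctsl, Fuca2, Msmo1, Nusap1 and Sox4. The medians of 14 of 47 lists changed sign in some alternative, the largest of them 0.18 in size as reported. Beside the counts given with the lists, the fit of the EpiLC arrays alone gave 8 naive genes higher against 5, 8 Nodal genes lower against 5, 13 adhesion genes higher against 8 and 11 basement membrane genes higher against 7. Dim genes limit what can be seen: among 6556 genes with a mean under 5 on the higher day, the median standard error was 0.485 (50 higher and 119 lower), while it was 0.071 among 998 genes above 11.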

Other observations

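Annexins, which bind membranes in a calcium-dependent way, rose in 5 of 11 cases and fell in none, in a list written after values were seen. Anxa5 read 9.39 and 9.15 on day 3, against 8.04 and 7.97 on day 2, a rise of 1.27 (SE 0.12, adjusted p = 8.11e-07). Anxa3 read 7.78 and 7.84 on day 3, against 5.69 and 5.88 on day 2, a rise of 2.03 (SE 0.22, adjusted p = 3.91e-06). Anxa2 rose by 0.96 (SE 0.20, adjusted p = 0.00176). Of 17 genes of antigen presentation by MHC class I, 2 rose and 1 fell. B2m, the light chain shared by class I molecules, read 10.14 and 10.33 on day 3, against 8.21 and 8.29 on day 2, a rise of 1.99 (SE 0.19, adjusted p = 8.11e-07), and 11.71 and 11.86 in 2i cells. It was the 1 of 11 housekeeping genes that passed. Ifi30, a lysosomal reductase of the same list, rose by 1.11 (SE 0.14, adjusted p = 1.73e-05), and Irf1, a factor of the interferon response, fell by 0.81 (SE 0.26, adjusted p = 0.0407), a call lost without any 1 of the 4 arrays, without the intensity trend and when probe sets were averaged. Of 10 genes of the 2-cell-like state, Eif1a fell by 0.38 (SE 0.06, adjusted p = 0.000258) and Zfp809 fell by 0.66 (SE 0.15, adjusted p = 0.00389); 1 fell without day 2 replicate 2.

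Of 10092 probe sets without a single gene symbol, 385 were higher on day 3 and 300 lower in a fit of 45036 probe sets. Among genes with more than 1 probe set, 1946 were called, and in 717 of them at least 1 further probe set differed in the opposite direction, in 77 with a call of its own.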
